A study of Psophocarpus tetragonolobus with 12 samples.

Results

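Transcript levels of 6 flavonoid hydroxylase genes were followed in maturing winged bean pods: 3 genes annotated as flavanone 3-hydroxylase (F3H), 2 as flavonoid 3'-hydroxylase (F3'H) and 1 as flavonoid 3'5'-hydroxylase (F3'5'H). They are 6 of the 30392 genes in the expression table and were picked by gene identifier from the anthocyanin pathway genes of the study. Their stage values were known when they were picked, so everything said about their course over the stages is a description. The pods came from FP15, the purple-podded maternal line of the study, and represent 4 stages, counted in days after anthesis: Day 15 and the later Day 30, Day 37, then Day 45. Where a gene is given 4 values in a row, they follow this order. Every stage was covered by 3 libraries of polyadenylated RNA, made without strand information, from different plants kept in a growth chamber, 12 libraries in all. All groups share this 1 genotype. There was no green-podded line among these libraries, so stages are compared with stages only. The expression table holds 1 whole-number FPKM (fragments per kilobase of transcript, scaled to the number of mapped fragments) per gene and stage. The spread between plants is therefore unknown, no test was run, and the only error given is that of rounding, 0.5 FPKM either way.

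Both kinds of B-ring hydroxylase and F3H act in the middle of the flavonoid pathway. F3H, a soluble oxygenase, turns flavanones into dihydroflavonols, the common precursors of flavonols, proanthocyanidins and anthocyanins. F3'H and F3'5'H are cytochrome P450 enzymes that add hydroxyl groups to the B ring of the same molecules. F3'H leads to the cyanidin type of anthocyanin and F3'5'H to the delphinidin type, which is why the balance of their transcripts is of interest in a purple pod. Without either, the pathway leads to the pelargonidin type. Pigments were not measured in these libraries.

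A pair of F3H copies exchanged places between Day 15 and Day 45. Psote03G0189000, matched to the Arabidopsis F3H gene TT6, was the higher of the pair at Day 15. It stood at 129, 75, 42 and 15 FPKM. Each stage was thus lower than the one before it, and the last was 8.60-fold below the first, with rounding limits of 8.29 and 8.93. On the log2(FPKM+1) scale used for all changes here, the difference was -3.02. At Day 15 the gene lay above 96.4% of the 22459 measured genes, those that reached 1 FPKM in at least 1 stage, and at Day 45 above 56.9%. The gene lies on Chr03.2 between 484724 and 490268, in the coordinates of the authors' own assembly of the green-podded line Ma3. A second gene model, Psote03G0189100, overlaps it between 484810 and 485205 and was listed at 0 FPKM in all 4 stages.

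The other copy, Psote03G0135400, had the opposite course. It stood at 26, 81, 105 and 161 FPKM. Each stage was higher than the one before it, and the last was 6.19-fold above the first (rounding limits 6.06 and 6.33), a log2 difference of 2.58. It went from above 73.6% of measured genes at Day 15 to above 97.1% at Day 45. It lies on Chr03.1 between 26713236 and 26715790. Its annotation is not settled: the pathway list pairs it with the soybean F3H match Glyma.08G070000, whereas the study's list of genes in a seed protein interval pairs the same gene with Glyma.13G042200 and with the Arabidopsis gene AT2G44800, named there only as an oxygenase of the broad class to which F3H belongs.

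The ratio of Psote03G0135400 to Psote03G0189000 was 0.202, 1.08, 2.50 and 10.7 over the stages. The copies were thus nearly level at Day 30, although the difference of 81 against 75 FPKM is larger than rounding allows for (ratio limits 1.07 and 1.09). From Day 15 to Day 45 the ratio shifted 53.3-fold, with rounding limits of 50.2 and 56.6. Both values of a ratio come from the same stage, so a factor that scales a whole stage cancels in it.

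The third F3H gene, Psote01G0051600, was low, and its listed values lay within 2-fold. It stood at 5, 7, 9 and 8 FPKM, with a highest value 1.80-fold above its lowest. The last value was 1.60-fold above the first, with rounding limits of 1.36 and 1.89, so the difference exceeds rounding. It lies on Chr01.1 between 6370546 and 6374051 and is paired with the soybean gene Glyma.12G048600. The summed level of the 3 F3H genes was 160, 163, 156 and 184 FPKM over the stages. While the sum stayed within this range, the share held by Psote03G0189000 went from 80.6% to 8.15% and that of Psote03G0135400 from 16.3% to 87.5%.

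**Figure D1:**
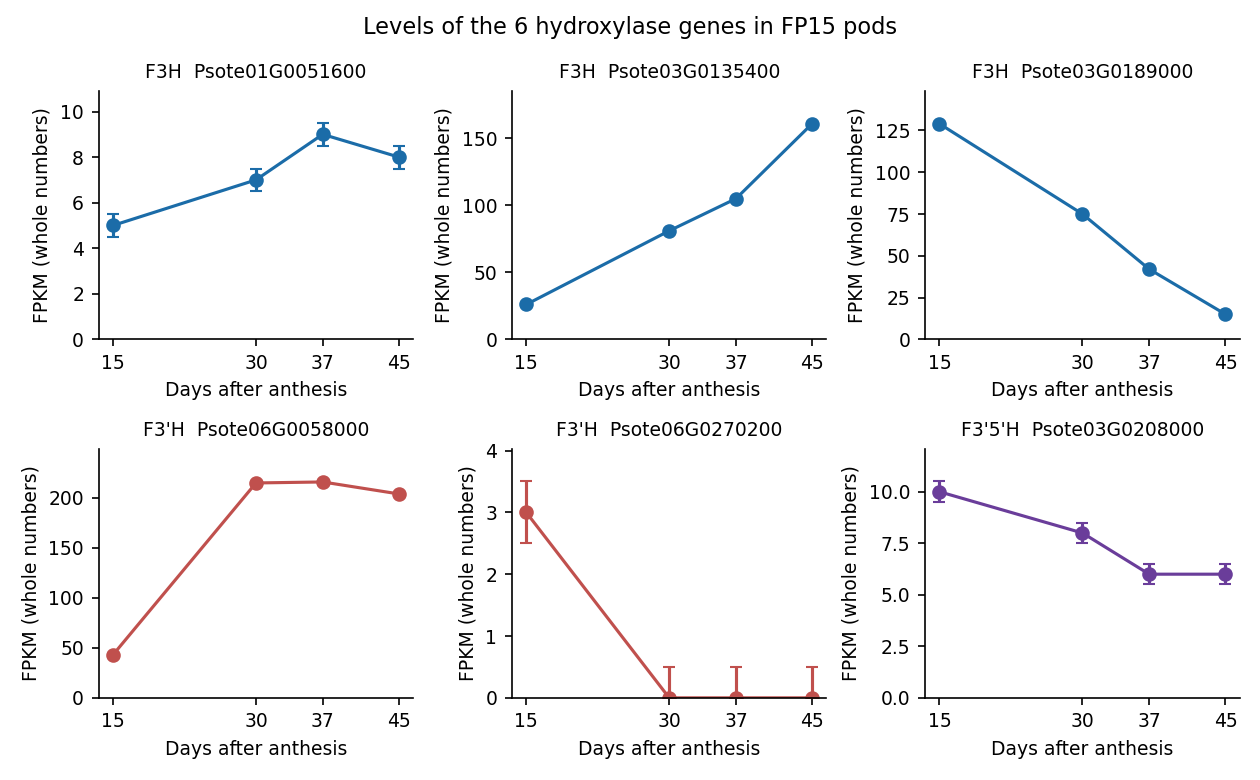
Level of each of the 6 hydroxylase genes (y axis, FPKM, each panel with its own range from 0) against days after anthesis (x axis); points are the single value per stage and bars the rounding error of 0.5 FPKM either way, not a spread between plants. Psote03G0135400 goes from 26 to 161 FPKM while Psote03G0189000 goes from 129 to 15 FPKM, and F3'H Psote06G0058000 steps from 43 to 215 FPKM by Day 30 and stays there.

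Of the 2 F3'H genes picked, Psote06G0058000 carried nearly all of the transcript. It stood at 43, 215, 216 and 204 FPKM. The step lay wholly between Day 15 and Day 30, 5.0-fold with rounding limits of 4.93 and 5.07, and the later stages lay between 204 and 216 FPKM. It was above 85.0% of measured genes at Day 15 and above 97.9 to 98.0% from Day 30 on. The gene lies on Chr06.1 between 7501624 and 7504024 and is paired with the soybean gene Glyma.16G021200.

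The second F3'H gene, Psote06G0270200, was barely present. It stood at 3 FPKM at Day 15 and was listed at 0 FPKM in every later stage, where any value below 0.5 FPKM would be listed as 0. No fold is given against a listed 0. The log2(FPKM+1) difference was -2.00, and rounding alone allows -2.17 to -1.22. It counts as measured only through its Day 15 value. The gene lies on Chr06.4 between 14510284 and 14512091, and the lists give it no named match in another species.

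Only 1 F3'5'H gene is in the list, Psote03G0208000, and its level was low throughout. It stood at 10, 8, 6 and 6 FPKM. The first value was 1.67-fold above the last, with rounding limits of 1.46 and 1.91, so the difference exceeds rounding but does not reach 2-fold. It lay above 45.0% of measured genes at Day 15 and above 34.6% at Day 37. The gene lies on Chr03.2 between 4616100 and 4625789. Its name comes from the pathway list, which pairs it with AT5G07990, the Arabidopsis F3'H gene TT7, and the same Arabidopsis gene is the match given for the F3'H copies Psote06G0042800, Psote02G0204700 and Psote09G0151500. Whether it encodes a 3'5'-hydroxylase or a 3'-hydroxylase cannot be read from these expression values, and the balance of transcripts takes the name as given.

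The F3'H to F3'5'H balance moved towards F3'H early and then levelled off. The summed level of both F3'H genes was 46, 215, 216 and 204 FPKM over the stages. Divided by the F3'5'H level of the same stage, this gives a ratio of 4.60 at Day 15 (rounding limits 4.29 and 4.95), 26.9 at Day 30 (25.2 and 28.8), 36.0 at Day 37 (33.2 and 39.5) and 34.0 at Day 45 (31.3 and 37.3). Day 15 stands apart from every later stage by more than rounding, as does Day 30 from Day 37, whereas the limits of Day 37 and Day 45 overlap. The ratio at Day 45 was 7.39 times that at Day 15 (rounding limits 6.33 and 8.70). Expressed as a share, F3'5'H made up 17.9% of the summed F3'H and F3'5'H level at Day 15 and 2.86% at Day 45. Psote06G0058000 alone gives ratios of 4.30 at Day 15 and 34.0 at Day 45, so the second F3'H gene bears on the Day 15 value only.

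The size of this shift depends on which F3'H copies are counted. The pathway list holds 6 F3'H copies, and their sum gives ratios to F3'5'H of 15.3, 40.9, 53.0 and 50.5 over the stages, a 3.30-fold shift over the whole course (rounding limits 2.82 and 3.89). The difference comes mainly from Psote02G0020800, which was at 93, 93, 82 and 81 FPKM, above Psote06G0058000 at Day 15 and below it from Day 30 on. Its gene model spans only 776 bp, the shortest among the F3'H copies, and whether it encodes a whole enzyme is not known from these data. Without it, the remaining 5 copies give 6.0 at Day 15 and 37.0 at Day 45, a 6.17-fold shift. With 3 further genes matched to F3'H in the study's lists, the 9 copies give 16.2 at Day 15 and 51.2 at Day 45, a 3.16-fold shift. The summed F3'H level exceeded that of F3'5'H in each stage under all 4 ways of counting. All 4 include Psote06G0058000, which alone exceeded F3'5'H in each stage, so they could not differ on this.

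**Figure D2:**
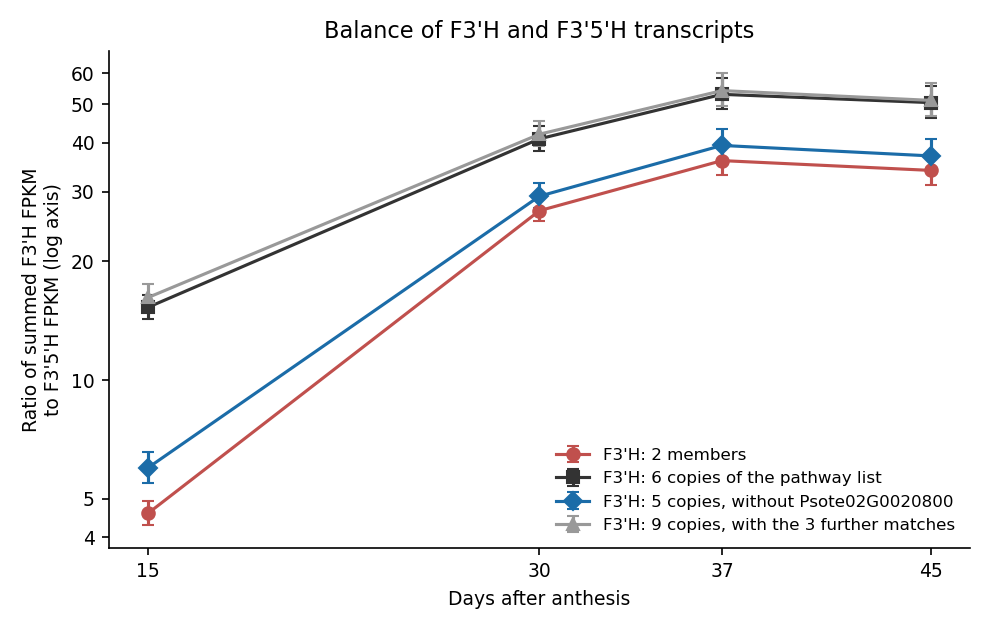
Ratio of summed F3'H FPKM to F3'5'H FPKM (y axis, log scale) against days after anthesis (x axis), for 4 ways of choosing the F3'H copies; bars are the limits that rounding allows. Every line is lowest at Day 15 and highest at Day 37, from 4.60 to 36.0 for the 2 F3'H genes picked (2 members in the key) and from 15.3 to 53.0 for the 6 copies of the pathway list. In every line the limits of Day 37 and Day 45 overlap, so rounding alone could make the Day 37 peak.

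Between any pair of stages, a difference of at least 1 in log2(FPKM+1), 2-fold, was taken as a call. From Day 15 to Day 45, 2 of the 6 genes were called higher (Psote03G0135400 and Psote06G0058000), where 14.3% of measured genes were, and 2 were called lower (Psote03G0189000 and Psote06G0270200), where 19.4% were. The other 2, Psote01G0051600 and Psote03G0208000, differed by 0.58 and -0.65. These values were known when the genes were chosen, so the counts are given without further reading. The median difference of the 6 genes was -0.03, and that of all measured genes was 0.

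By stage, the calls of the 6 genes fell into the first and the last interval. Between Day 15 and Day 30, Psote03G0135400 and Psote06G0058000 were called higher (9.47% of measured genes) and Psote06G0270200 lower (13.7%). Between Day 30 and Day 37, 0 of the 6 were called in either direction, beside 3.47% of measured genes called higher and 3.69% called lower. Of these background calls, 446 of 780 higher and 551 of 828 lower were steps between a listed 0 and a listed 1, and over the genes that reached 5 FPKM the shares were 1.61% and 1.8%. Between Day 37 and Day 45, Psote03G0189000 was called lower, at 42 against 15 FPKM, and 0 were called higher, beside 5.13% and 3.53% of measured genes. Psote03G0189000 had also differed by -0.77 and -0.82 over the earlier intervals, each short of the threshold.

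The pathway list annotates 11 further genes to the same enzymes, 7 to F3H and 4 to F3'H. Of these, 10 were measured, and from Day 15 to Day 45 3 were called higher, beside 14.3% of measured genes, and 2 lower, beside 19.4%, with 5 neither and a median difference of 0.07. The share called lower is near that of all measured genes. The highest of all F3H copies in each stage was Psote02G0110700, at 143, 374, 363 and 418 FPKM, a 2.92-fold difference between the first and the last stage. It lies on Chr02.1 between 34761805 and 34763386 and is paired with the soybean gene Glyma.06G128100. As in Psote06G0058000, its 2-fold step lay between Day 15 and Day 30. Psote01G0351000 was nearly level, at 70, 70, 71 and 77 FPKM.

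Other F3H copies were low or near 0. Psote07G0080300 was at 8, 4, 2 and 1 FPKM, the same downward order as Psote03G0189000 at a far lower level. Psote02G0121300, paired with the Arabidopsis gene AT5G24530 (DMR6), was called higher only because a listed 0 became a listed 1 at Day 45, a step that rounding alone can make. Psote02G0121200 and Psote05G0274200 did not exceed 1 FPKM in any stage, and Psote04G0217100 was listed at 0 FPKM in all 4.

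Among the other F3'H copies, Psote03G0108400 was called higher, at 1, 4, 5 and 5 FPKM. Psote09G0017300 was called lower, at 4 FPKM at Day 15 and 1 FPKM in each later stage, and its rounding limits (-1.87 and -0.85) reach past the threshold. Psote06G0042800 was at 9, 14, 14 and 12 FPKM. Of the 3 further F3'H matches, Psote02G0204700 was called lower, at 8, 8, 6 and 2 FPKM, and Psote04G0269000 and Psote09G0151500 did not exceed 2 FPKM. The exchange of copies seen within F3H, one high copy up and another down, has no equivalent of like level in F3'H, where the copies called lower did not exceed 8 FPKM.

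**Figure D3:**
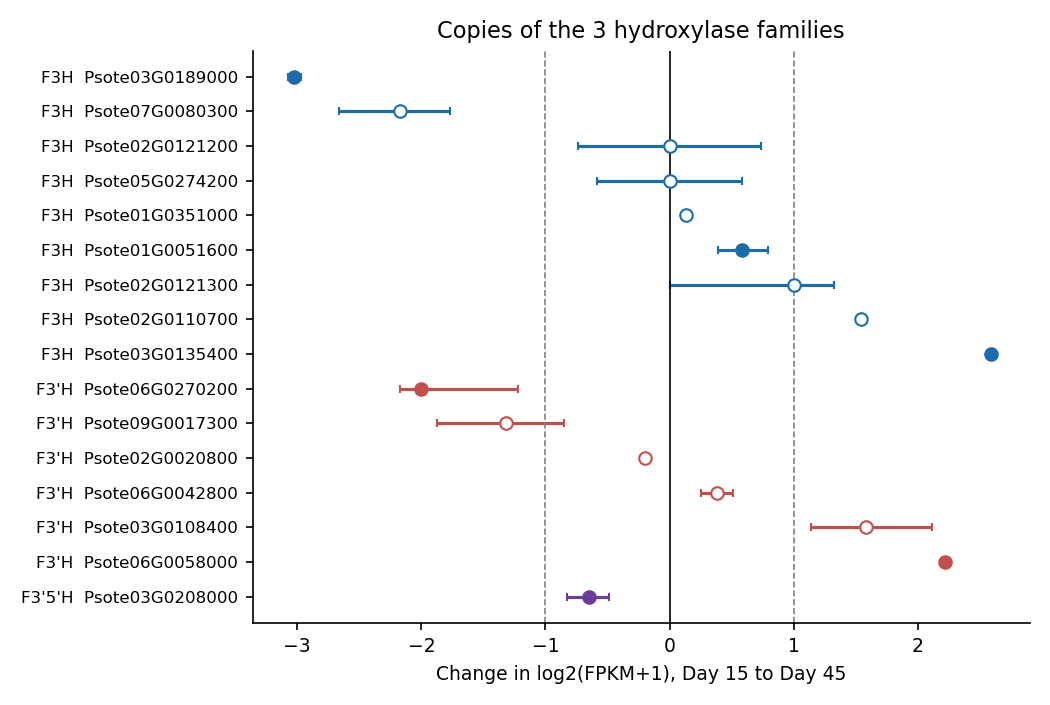
Difference in log2(FPKM+1) between Day 15 and Day 45 (x axis; positive is higher at Day 45) for the 16 measured copies of F3H, F3'H and F3'5'H in the pathway list (y axis); filled points are the 6 genes picked, open points the other copies, bars the rounding limits and dashed lines the 2-fold threshold. Differences run from -3.02 for F3H Psote03G0189000 to 2.58 for F3H Psote03G0135400, and the bars are widest for copies near 0 FPKM.

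Set within the whole F3H family, the exchange between Psote03G0189000 and Psote03G0135400 concerned a minority of the transcript. The 10 F3H copies summed to 382, 611, 593 and 682 FPKM over the stages. Psote02G0110700 made up 37.4% of this at Day 15 and 61.2 to 61.3% from Day 30 on. Psote03G0189000 was second at Day 15 with 33.8% and held 2.20% at Day 45. Psote03G0135400 held 6.81% at Day 15 and, as the second copy, 23.6% at Day 45. The sum over the family was thus higher after Day 15, whereas that of the 3 genes described first was nearly level up to Day 37.

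**Figure D4:**
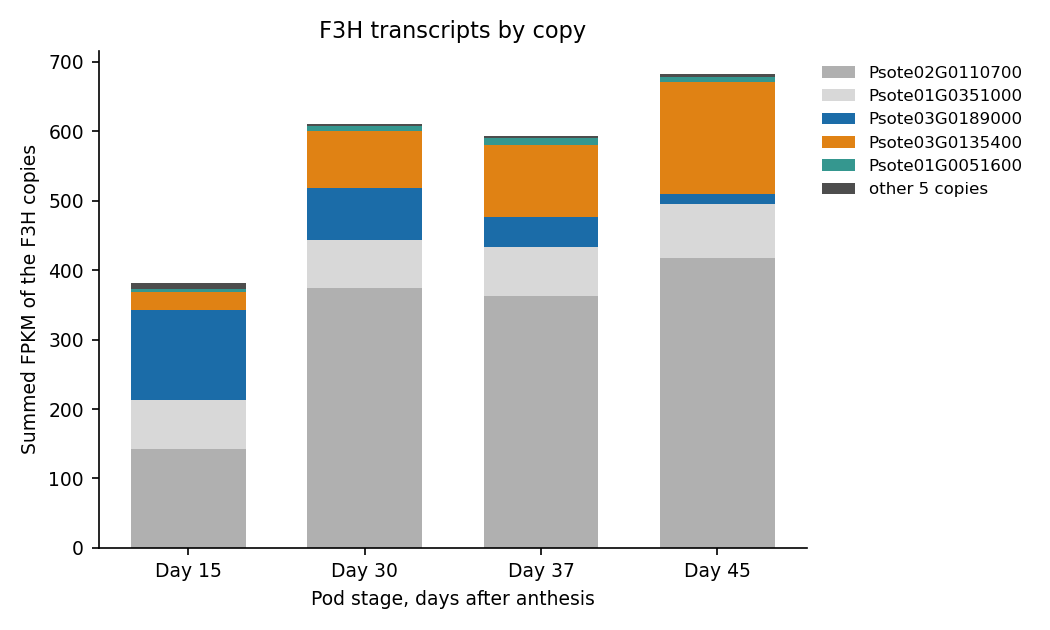
Summed FPKM of the 10 F3H copies (y axis, from 0) at each pod stage (x axis), with each bar divided by copy. The segment of Psote03G0189000 shrinks from 129 to 15 FPKM while that of Psote03G0135400 widens from 26 to 161 FPKM, and Psote02G0110700 is the largest segment in each stage.

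The 6 genes did not share 1 profile. Profiles were compared as the Euclidean distance between log2(FPKM+1) values over the 4 stages, each centred on its own mean. The closest pair among the 6 was F3H Psote03G0135400 and F3'H Psote06G0058000, at a distance of 0.78, and the farthest pair was the F3H copies Psote03G0189000 and Psote03G0135400, at 4.06. F3'5'H Psote03G0208000 lay 2.44 from F3'H Psote06G0058000.

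For each of the 5 genes that reached 5 FPKM, the 2 nearest of 50 genes were looked up. These 50 were the genes of the pathway and its MYB, bHLH and WD40 regulators that reached 5 FPKM, outside the hydroxylase families. Each count of genes as near includes the named gene itself. The nearest to F3H Psote03G0189000 was the glucosyltransferase gene Psote03G0138100, matched to UGT78D2, an Arabidopsis flavonoid 3-O-glucosyltransferase. It was at 110, 73, 35 and 16 FPKM, a distance of 0.28, and 8 of the other 17487 genes that reached 5 FPKM lay as near. Next was the anthocyanidin synthase gene Psote01G0255900, whose enzyme makes the coloured anthocyanidins, at 266, 226, 110 and 53 FPKM (distance 0.53, 59 genes as near). Both act after F3H in anthocyanin synthesis.

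The genes nearest to F3'H Psote06G0058000 encode phenylalanine ammonia lyase (PAL), the entry enzyme of the phenylpropanoid pathway. Psote04G0213400 was at 75, 342, 425 and 326 FPKM (distance 0.25, 17 genes as near). Psote05G0268700 was at 32, 151, 161 and 121 FPKM (distance 0.27, 24 genes as near). Each shares with the F3'H gene a step between Day 15 and Day 30 and no 2-fold step after it.

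F3H Psote03G0135400 lay nearest to the bHLH regulator gene Psote03G0038600, matched to Arabidopsis GL3, which went from 3 FPKM in the first stage to 20 FPKM in the last (distance 0.29, 77 genes as near), and to the chalcone synthase gene Psote01G0233000 (distance 0.50, 284 genes as near). For the flatter profiles, more genes lay as near as the nearest pathway gene. F3H Psote01G0051600 had 176 genes as near as its nearest pathway gene, the chalcone synthase gene Psote01G0232100 at a distance of 0.15, and 291 as near as the next, the 4-coumarate CoA ligase gene Psote01G0231200 at 0.18. F3'5'H Psote03G0208000 had 462 genes as near as the chalcone isomerase gene Psote08G0170400 at 0.21, and 873 as near as PtMYB113b (Psote05G0036600) at 0.26, an R2R3-MYB gene of the pigment regulators. With only 4 points to a profile, these distances order genes and carry no test.

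**Figure D5:**
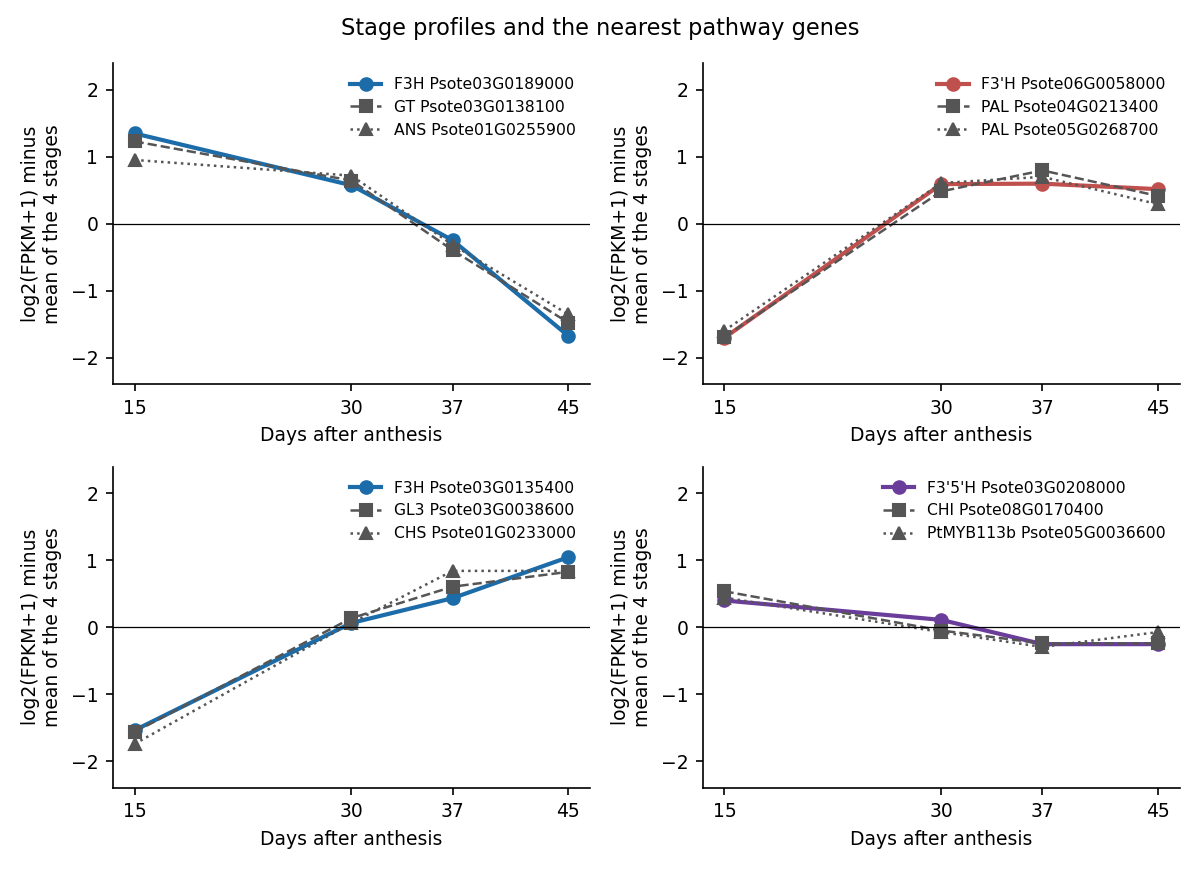
Stage profiles of 4 hydroxylase genes and the 2 pathway or regulator genes nearest to each (y axis, log2(FPKM+1) minus the gene's mean over the 4 stages; x axis, days after anthesis). F3H Psote03G0189000 follows the glucosyltransferase and anthocyanidin synthase genes downwards, F3'H Psote06G0058000 follows the PAL genes upwards to Day 30, and F3'5'H Psote03G0208000 stays close to its mean.

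The rest of the pathway list gives the setting. Outside the 3 families it holds 59 genes, of which 55 were measured, and from Day 15 to Day 45 27 were called higher (14.3% of all measured genes were) and 15 lower (19.4%), with 13 neither and a median difference of 0.77. Of these calls, 4 of the higher and 1 of the lower were steps between a listed 0 and a listed 1. Upstream of the hydroxylases, 4 of 4 PAL genes and 2 of 2 genes for cinnamate 4-hydroxylase, which follows PAL, were called higher. Of the 5 genes for 4-coumarate CoA ligase, the third entry enzyme, 2 were called higher and 3 neither. Of the 12 chalcone synthase genes 7 were called higher and 2 lower, but 3 of the former and 1 of the latter only stepped between a listed 0 and a listed 1. Of the 8 chalcone isomerase genes, which supply the flavanones that F3H uses, 2 were called higher and 4 lower. Downstream, dihydroflavonol 4-reductase genes were split at 3 higher, 1 of them only from a listed 0 to 1, and 2 lower of 6 measured, and anthocyanidin synthase genes at 1 higher and 1 lower of 3. The downstream families thus held copies in both directions, as F3H and F3'H did. A pair of dihydroflavonol 4-reductase copies, picked with their values known, also exchanged places between Day 15 and Day 45. Psote08G0200700 was at 164, 94, 60 and 33 FPKM, and Psote03G0413000 was at 56, 190, 181 and 143 FPKM. The latter was highest at Day 30, whereas F3H Psote03G0135400 was higher at each stage than at the one before.

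Pods hold several tissues, and in bulk RNA fewer cells of a type and less RNA per cell cannot be told apart. Markers of lignified tissue shared 1 step with Psote06G0058000. The summed level of 13 lignin-related genes was 233, 1277, 983 and 743 FPKM over the stages. Of the 13, 11 were at 1 FPKM or more at Day 15, Day 30 and Day 37 and 9 at Day 45. Both the list and the F3'H gene stepped up between Day 15 and Day 30, and from there to Day 45 the list went down while the F3'H gene stayed nearly level. Of the list, the methyltransferase match CCoAOMT1 (Psote03G0183300) went from 54 to 642 FPKM between Day 15 and Day 30, the laccase match IRX12 (Psote05G0095400) from 1 to 216 FPKM, and the methyltransferase match OMT1 (Psote03G0247500) from 50 to 14 FPKM. From Day 15 to Day 30, 8 of its 12 measured genes were called higher, beside 9.47% of all measured genes, and 2 lower, beside 13.7%. From Day 15 to Day 45, 7 of the 12 were called higher, beside 14.3%, and 3 lower, beside 19.4%. Without CCoAOMT1, the gene of the list with the highest mean, left out after the values were seen, the sum was 179, 635, 453 and 347 FPKM, with the step between Day 15 and Day 30 still present. The 51 albumin and globulin genes, as markers of seed tissue, summed to 791, 1134, 1214 and 1288 FPKM over the stages, with 23 to 27 genes at 1 FPKM or more per stage and the rest at 0. The highest of them in each stage was the putative 2S albumin Psote06G0099600, with 382 FPKM in the first stage and 786 FPKM in the last. Without it, a choice likewise made after seeing the values, the sum was 409, 281, 374 and 502 FPKM. The sum of all 51 genes was higher at each stage than at the one before, as was F3H Psote03G0135400. The sum without Psote06G0099600 was lowest at Day 30. From Day 15 to Day 45, 13 of the 35 measured seed genes were called higher and 16 lower, with a median difference of -0.22, beside 14.3% and 19.4% of all measured genes. The widest differences were those of the putative 2S albumin Psote07G0197200, from 0 to 80 FPKM, and of the globulin Psote03G0078700, from 148 to 12 FPKM. The part of either tissue in the hydroxylase values was not tested.

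The values per stage summed to between 709255 and 795780 FPKM. Depth per library was not used here. Reads that fit near-identical copies equally well could have been counted for either, and since the libraries carry no strand, reads from the stretch that Psote03G0189000 shares with the model overlapping it cannot be told apart. The gene models are those of Ma3 and the RNA is of FP15, and an effect of sequence differences between these lines on any copy was not tested.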

How the data were processed

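RNA of FP15 pods was sequenced in 3 libraries for each of 4 stages, grouped by the labels. Per the submitters' processing notes, reads were trimmed with fastp, aligned with HISAT2 2.0.5 and assigned to genes with featureCounts 1.5.0-p3. The gene coordinates are those of the authors' Ma3 assembly. The authors deposited FPKM as whole numbers, 1 value per gene and stage, handled as a score since rounding removed the fractions. The way the 3 libraries became 1 value is not given in the sources used.

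A limma fit had been foreseen for values per library. With 1 value per stage, the foreseen fallback was used: levels, ratios, their rounding limits and a 2-fold rule on log2(FPKM+1), over 22459 genes at 1 FPKM or more in a stage. The other 7933 genes were listed at 0. The scripts were tested on simulated data. The 6 genes and all gene lists, which come from the study, were chosen with earlier results of these data known. Genes named are the 6, the other copies of their families, the 2 nearest pathway or regulator genes of each gene at 5 FPKM or more, and, of the marker lists, the highest and the most changed. Alternatives covered the pseudocount, the low-value filter, 3 rescalings, the fold threshold and the choice of F3'H copies. The gene table supplied as reference is of another assembly and matched 0 of the gene identifiers, so no sequence was used. Calculations ran in Python 3.11.15 with pandas 2.3.3 and numpy 2.4.6, and plots in matplotlib 3.10.9.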

Additional observations from a re-analysis of the deposited data

How the results depend on the processing

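Of 80 recalculated counts and ratios, 68 stayed within 1.5 times (counts) or within the rounding limits (ratios) and 12 moved. The 68 include the rounding limits of the ratios themselves, entered as settings, which stay within those limits by definition. Of 104 recalculated single-gene differences, for genes still measured under the setting, 100 kept their side of the threshold. The other 4 lost their call under the 4-fold rule, all in copies outside the 6 genes, and 0 reversed. The 100 include differences that the 5 FPKM filter cannot alter. They also include genes not called at 2-fold, which cannot gain a call under the 4-fold rule. Filters removed further calls. With only genes at 5 FPKM or more, Psote06G0270200 dropped out, so the genes called lower from Day 15 to Day 45 numbered 1 instead of 2 among the 6, and among the other copies 2 instead of 3 were called higher and 1 instead of 2 lower. Rescaling each stage to the same median, taken over genes at 5 FPKM or more in every stage, left Psote02G0121300 below 1 FPKM, so 2 other copies instead of 3 were called higher. The F3'H to F3'5'H ratio moved with the copies counted: all 6 copies gave 15.3, 40.9, 53.0 and 50.5 from Day 15 to Day 45, 9 copies gave 16.2, 42.0, 54.2 and 51.2, and 5 copies without Psote02G0020800 gave 6.0 at Day 15 and 29.3 at Day 30. Rescaling each stage to the same sum changed the split of all genes called, though no call of the 6: Day 30 against Day 15 went from 2126 higher and 3086 lower to 1362 and 3225, with the median of all measured genes at -0.11, Day 37 against Day 30 from 780 higher and 828 lower to 214 and 281, and Day 45 against Day 37 from 792 higher and 1152 lower to 811 and 364. With the same median, these last 2 intervals held 219 higher and 163 lower, and 240 higher and 385 lower. No paired analysis was possible because the table holds 1 value per gene and stage, and for the same reason the replicate block and leaving out replicates were not run. Precision is limited by rounding below about 5 FPKM and by an unknown spread between plants.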
